A study of Mus musculus with 12 samples.

Results

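The genes described here mark the subfields of the mouse hippocampus. The 10 genes comprised 4 of field CA1 (*Fibcd1*, *Pou3f1*, *Spink8* and *Nov*), 2 of field CA3 (*Bok* and *Cpne4*) and 4 of the dentate gyrus (*Prox1*, *Dsp*, *C1ql2* and *Tdo2*), out of 21154 genes named on the array. They were chosen by name as known subfield markers, and every probe bearing one of these names was taken, which gave 18 probes out of 34898 named ones. Expression was profiled in whole hippocampus and whole cerebellum of adult En2-/- mice and wild-type (WT) littermates, with 3 one-colour Agilent arrays per tissue and genotype. The En2-/- mice carry a germline allele (En2tm1Alj) that removes the homeobox of the transcription factor gene *Engrailed-2* in all cells. Both genotypes came from heterozygous matings. The study used mice of both sexes, and the sex of each sample is not given in the sources used here. The line arose on a mixed 129Sv, C57BL/6 and outbred background, and both genotypes share its repeated backcrossing to C57BL/6. Its cerebellum is known to be small, with fewer Purkinje cells. Levels are log2 normalised fluorescence intensities of a probe, so that 1 unit is a 2-fold difference.

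The hippocampus is built as a chain of excitatory neurons. Granule cells of the dentate gyrus send mossy fibres to the pyramidal neurons of CA3, whose Schaffer collaterals contact the pyramidal neurons of CA1, the main output field. Each of these neuron types expresses its own set of genes in the adult, and sections stained for such genes are a standard way to draw the borders between the fields. Because RNA was taken from whole tissue, each level pools all cells that express the gene, inside its subfield or outside it. Fewer cells of a type and less RNA per cell cannot be told apart.

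Each level is the signal of a 60-base oligonucleotide. The CA1 genes had a single probe each, placed (mouse build mm9) at chr2:31669627-31669686 on the minus strand for *Fibcd1*, chr4:124336338-124336397 on the plus strand for *Pou3f1*, chr9:109727065-109728944 on the plus strand for *Spink8* and chr15:54584204-54584263 on the plus strand for *Nov*. The *Spink8* probe spans 1880 genomic bases, more than its own length, and so crosses a splice junction. *Bok* was read at chr1:95592249-95592308 on the plus strand. For *Cpne4* and the dentate gyrus genes, the sequences of some of their probes are given below. *C1ql2* had a single probe. *Cpne4* A_51_P260288 and *Prox1* A_51_P369056, which are compared with other probes further on, are not among those sequences. The sequences are printed on the sense strand in lower case, with no part set apart. Each is free of stop codons in at least 1 reading frame. They lie at chr9:104935088-104935147 (plus) for *Cpne4*, chr1:191977369-191984426 (minus) for *Prox1*, chr13:38289734-38289793, chr13:38287658-38287717 and chr13:38285480-38286579 (plus) for *Dsp*, chr1:122238262-122238321 (plus) for *C1ql2*, and chr3:81772155-81773432 and chr3:81767918-81770928 (minus) for *Tdo2*.
Cpne4 A_52_P392314: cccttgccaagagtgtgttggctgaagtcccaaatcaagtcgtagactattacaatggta
Prox1 A_51_P369058: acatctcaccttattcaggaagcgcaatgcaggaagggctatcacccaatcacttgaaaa
Dsp A_52_P242544: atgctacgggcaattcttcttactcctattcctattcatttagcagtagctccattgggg
Dsp A_52_P549815: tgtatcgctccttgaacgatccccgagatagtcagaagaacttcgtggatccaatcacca
Dsp A_51_P201884: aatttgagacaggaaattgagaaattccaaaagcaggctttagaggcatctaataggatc
C1ql2 A_52_P483959: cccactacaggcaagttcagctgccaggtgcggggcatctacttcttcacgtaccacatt
Tdo2 A_51_P452625: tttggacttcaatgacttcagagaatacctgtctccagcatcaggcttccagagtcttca
Tdo2 A_52_P404341: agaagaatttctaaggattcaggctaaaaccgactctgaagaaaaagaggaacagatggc

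The level of a gene is that of its brightest probe, and the brightest probes of *Cpne4* (chr9:104936317-104936376, plus), *Prox1* (chr1:191942646-191942705, minus) and *Dsp* (chr13:38290121-38290180, plus) are others than those printed. The 12 arrays each held 43379 spots, of which 62.3 to 73.0% were well above background by the scanner software's call, and no spot was saturated. Each of the 3 slides carried 1 array of every group, and the replicate number is the number of the slide. The first En2-/- hippocampus array stood apart from the other hippocampus arrays in the CA1 genes, and results that rest on it are given with and without it. The place on the slide was fixed for each group, so that place and group cannot be told apart. The tissue came from 3 mice per genotype, and whether a hippocampus and a cerebellum array of the same number share a mouse is not given in the sources used here. The labels name no animals, so the p-values below measure the spread between these samples. The *En2* probe lies in a part of the gene that the allele keeps, per the study, so its level checks no label (14.15 in WT and 14.46 in En2-/- cerebellum, limma adjusted p = 0.84, and 7.69 and 7.46 in hippocampus, adjusted p = 0.71).

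**Figure D1:**
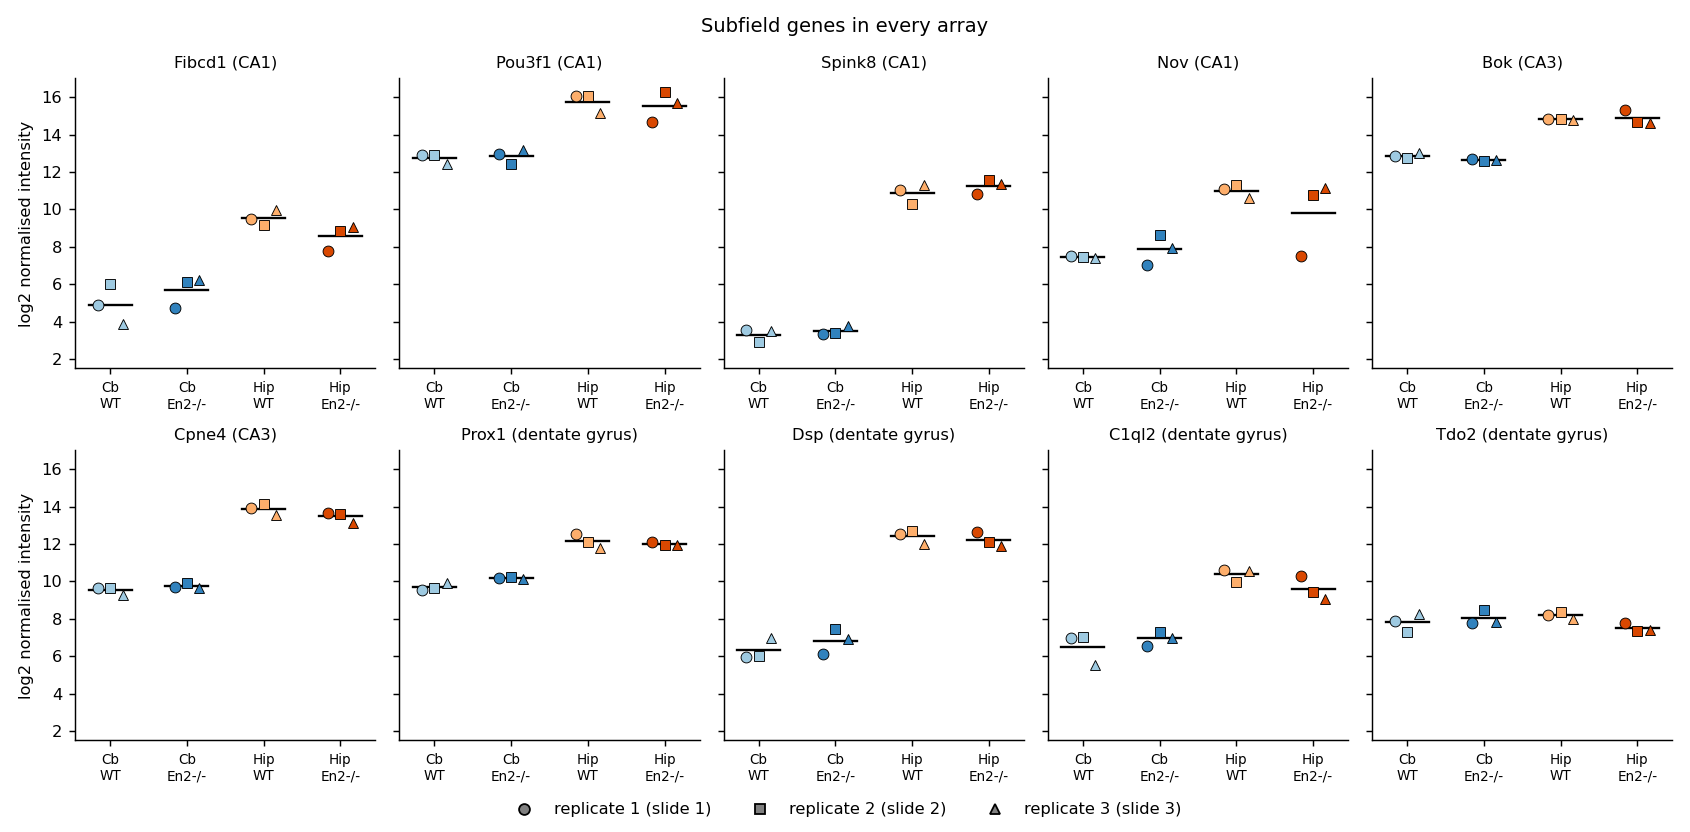
Level of each of the 10 genes (log2 normalised intensity of its brightest probe, y axis) in the 12 arrays, by tissue (Cb, cerebellum; Hip, hippocampus) and genotype (x axis); symbols give the replicate, which is also the slide, and bars the mean of 3 arrays. In 8 genes every hippocampus array lies above every cerebellum array, the exceptions being *Nov*, in which En2-/- hippocampus replicate 1 read 7.51, and *Tdo2*.

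The comparison between tissues asked how far the 10 genes set hippocampus apart from cerebellum. In WT, 9 of 10 genes were called higher in hippocampus (limma over 15822 genes, adjusted p under 0.05), against 14.7% of all genes. In En2-/-, 8 of 10 were called higher, against 14.3% of all genes. *Tdo2* was called in neither genotype, and *Nov* was not called in En2-/-. Without the first En2-/- hippocampus array, 9 of 10 were called in En2-/-, *Nov* among them. The median difference of all genes was -0.07 in WT and 0.03 in En2-/-, and the median of the list was 4.09 for CA1, 3.15 for CA3 and 3.16 for the dentate gyrus in WT. Of all genes called in WT, 46.1% were higher in hippocampus. That share was 24.1% when each tissue was scaled separately, under which 9 of the 10 genes were still called. In En2-/- the shares were 53.0% and 27.0%, with 8 of the 10 called.

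Among the CA1 genes, *Spink8*, which encodes a Kazal-type serine peptidase inhibitor, differed most. In cerebellum it read 3.54, 2.91 and 3.49 in WT and 3.32, 3.42 and 3.74 in En2-/-, and no cerebellum array was well above background. In hippocampus it read 11.05, 10.27 and 11.30 in WT and 10.84, 11.58 and 11.34 in En2-/-. The hippocampal level was therefore at least 156-fold higher in WT and at least 179-fold higher in En2-/-, measured against the lowest signal well above background where the probe was dimmer than that (adjusted p = 5.09e-09 and 4.84e-09). These bounds hold for the scanner's background subtraction. With normexp background correction, which raises dim signals, the measured difference was 25.5-fold in WT and 32.0-fold in En2-/-. By log2 difference *Spink8* ranked 9 of 15822 genes in WT and 6 in En2-/-.

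*Fibcd1* encodes a membrane receptor that binds acetylated sugars such as chitin. It read 9.50, 9.14 and 9.97 in WT and 7.78, 8.84 and 9.04 in En2-/- hippocampus, and 4.87, 6.01 and 3.86 in WT and 4.72, 6.12 and 6.23 in En2-/- cerebellum. The tissues did not overlap, although the probe was well above background on only 2 of the 3 WT cerebellum arrays. The difference was 4.62 ± 0.55 in WT (SE, n = 3 per group, 24.6-fold, adjusted p = 4.95e-05) and 2.86 ± 0.55 in En2-/- (7.28-fold, adjusted p = 0.0021). It was smaller with normexp (7.61-fold in WT and 3.58-fold in En2-/-) and in the authors' log2 table (6.09-fold and 2.81-fold), and was called in both.

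*Pou3f1* encodes a POU-domain transcription factor, also known as Oct6 or SCIP. It was bright in both tissues, at 16.06, 16.06 and 15.14 in WT and 14.68, 16.28 and 15.69 in En2-/- hippocampus, against 12.90, 12.92 and 12.41 in WT and 12.95, 12.41 and 13.15 in En2-/- cerebellum. All hippocampus arrays were above all cerebellum arrays. The difference was 3.01 ± 0.39 in WT (8.05-fold, adjusted p = 9.23e-05) and 2.71 ± 0.39 in En2-/- (6.54-fold, adjusted p = 2.52e-04).

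*Nov* (now *Ccn3*) encodes a secreted matricellular protein of the CCN family. It read 11.11, 11.28 and 10.62 in WT and 7.51, 10.76 and 11.14 in En2-/- hippocampus. In cerebellum it read 7.51, 7.43 and 7.41 in WT and 7.02, 8.64 and 7.93 in En2-/-. In WT the tissues stood apart, by 3.55 ± 0.74 (11.7-fold, adjusted p = 0.0032, and 7.07-fold in the authors' log2 table), but the first En2-/- hippocampus array fell within the cerebellar range. The En2-/- difference was 1.94 ± 0.74 (95% interval 0.31 to 3.56, adjusted p = 0.076). Without that array it was 3.08 (adjusted p = 1.63e-04). On the 3 slides taken one by one, hippocampus exceeded cerebellum by 0.49, 2.11 and 3.21 in En2-/- and by 3.60, 3.85 and 3.21 in WT.

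Of the CA3 genes, *Cpne4* encodes a copine, a calcium-dependent membrane-binding protein. Its brightest probe read 13.91, 14.15 and 13.57 in WT and 13.68, 13.60 and 13.15 in En2-/- hippocampus, against 9.65, 9.67 and 9.26 in WT and 9.71, 9.92 and 9.67 in En2-/- cerebellum. The tissues were far apart, with a difference of 4.35 ± 0.21 in WT (20.4-fold, adjusted p = 2.93e-08) and 3.71 ± 0.21 in En2-/- (13.1-fold, adjusted p = 1.30e-07). The mean of the gene's probes gave 12.05-fold in WT. The probe printed above gave 3.75 ± 0.37 in WT and 2.71 ± 0.37 in En2-/-. The third probe, at chr9:104775329-104775388, was well above background on none of the 6 cerebellum arrays, on 2 of 3 WT and on 3 of 3 En2-/- hippocampus arrays, which gave at least 2.37-fold in WT and at least 3.43-fold in En2-/-.

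*Bok* encodes a member of the Bcl-2 family that acts in cell death. It read 14.84, 14.84 and 14.78 in WT and 15.29, 14.65 and 14.64 in En2-/- hippocampus, against 12.83, 12.76 and 13.03 in WT and 12.68, 12.57 and 12.65 in En2-/- cerebellum. With *Prox1*, it had the smallest of the differences called, at 1.95 ± 0.19 in WT (3.85-fold, adjusted p = 9.85e-06) and 2.23 ± 0.19 in En2-/- (4.68-fold, adjusted p = 4.15e-06). Its 3 WT hippocampus arrays lay within 0.06 of one another.

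In the dentate gyrus list, *Dsp* encodes desmoplakin, a plaque protein of desmosomes. Its brightest probe read 12.53, 12.72 and 12.01 in WT and 12.66, 12.13 and 11.88 in En2-/- hippocampus, against 5.97, 6.01 and 6.95 in WT and 6.10, 7.46 and 6.93 in En2-/- cerebellum. No array of one tissue came near the other. The difference was 6.11 ± 0.37 in WT (69.1-fold, adjusted p = 1.88e-07) and 5.39 ± 0.37 in En2-/- (41.9-fold, adjusted p = 7.27e-07), and *Dsp* ranked 28 of 15822 genes in WT. With normexp it was 37.6-fold and 26.2-fold, 30.4-fold and 21.1-fold in the authors' log2 table, and as the mean of all its probes 24.4-fold and 12.9-fold, called in each. The probe A_52_P242544 gave 6.04 ± 0.42 and 5.44 ± 0.42. A_52_P549815, which lies 5′ of both, was well above background on 3 of 3 WT and 2 of 3 En2-/- hippocampus arrays and on no cerebellum array (at least 7.52-fold in WT and at least 3.22-fold in En2-/-). The most 5′ of the 4 probes, A_51_P201884, was not well above background on any of the 12 arrays.

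*Prox1* encodes the homeobox transcription factor that specifies and maintains granule cell identity. Its brightest probe read 12.53, 12.11 and 11.79 in WT and 12.13, 11.96 and 11.94 in En2-/- hippocampus, and 9.56, 9.63 and 9.94 in WT and 10.17, 10.25 and 10.11 in En2-/- cerebellum. The difference was 2.44 ± 0.20 in WT (5.41-fold, adjusted p = 2.18e-06) and 1.83 ± 0.20 in En2-/- (3.56-fold, adjusted p = 3.00e-05). Both other probes were also higher in every hippocampus array than in any cerebellum array, by 2.02 ± 0.32 and 2.05 ± 0.37 in WT and by 1.32 ± 0.32 and 1.40 ± 0.37 in En2-/-.

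*C1ql2* encodes a secreted protein with a C1q domain that mossy fibres release at their synapses. It read 10.59, 9.96 and 10.58 in WT and 10.29, 9.42 and 9.08 in En2-/- hippocampus, against 6.96, 7.03 and 5.51 in WT and 6.58, 7.30 and 6.99 in En2-/- cerebellum. The tissues did not overlap. The difference was 3.88 ± 0.42 in WT (14.7-fold, adjusted p = 2.26e-05) and 2.64 ± 0.42 in En2-/- (6.23-fold, adjusted p = 5.46e-04). In the authors' log2 table it was 6.83-fold and 3.34-fold, and with normexp it was 8.49-fold in WT.

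*Tdo2* encodes tryptophan 2,3-dioxygenase, which opens the indole ring of tryptophan and is best known from liver. RNA from whole tissue gives no comparison between subfields, so the place of *Tdo2* on the dentate gyrus list was not tested. Unlike the other dentate gyrus genes, *Tdo2* was not called higher in hippocampus in either genotype. In hippocampus it read 8.22, 8.38 and 8.02 in WT and 7.80, 7.33 and 7.40 in En2-/-, and in cerebellum 7.89, 7.28 and 8.27 in WT and 7.79, 8.47 and 7.84 in En2-/-. The tissues overlapped in both genotypes, although all 12 arrays were well above background. The difference was 0.39 ± 0.27 in WT (95% interval -0.20 to 0.98, adjusted p = 0.30) and -0.53 ± 0.27 in En2-/- (95% interval -1.12 to 0.06, adjusted p = 0.18). The other *Tdo2* probe gave 0.55 ± 0.28 and -0.46 ± 0.28. In En2-/- the difference was called, with hippocampus lower, when each tissue was scaled separately (-0.88, adjusted p = 0.026), a scaling that set the median of all genes at -0.25.

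**Figure D2:**
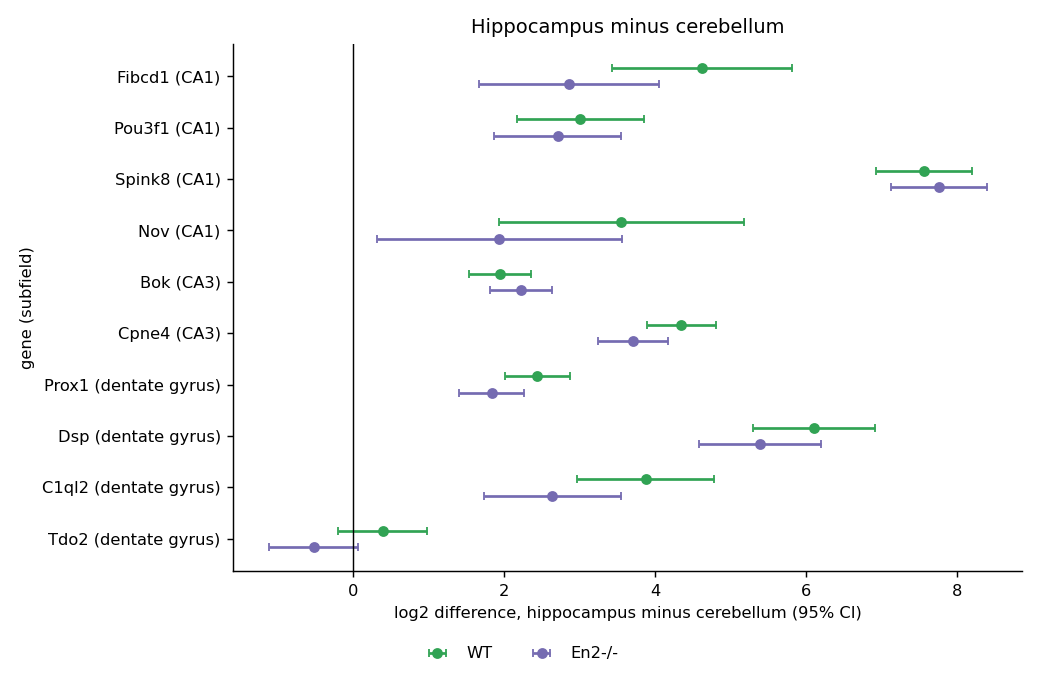
Log2 difference between hippocampus and cerebellum (x axis, with 95% confidence interval from limma) for each gene (y axis) in WT and En2-/- mice, n = 3 arrays per group. In WT, 9 intervals lie above 0 and that of *Tdo2* (-0.20 to 0.98) spans it.

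Ranked by mean level, the 4 groups of arrays fell in the order WT cerebellum, En2-/- cerebellum, En2-/- hippocampus, WT hippocampus for 7 of the 10 genes. The genotype steps in this order are differences that limma did not call, and no share over all genes is given for it. All 6 hippocampus arrays lay above all 6 cerebellum arrays in 8 genes, all but *Nov* and *Tdo2*, against 10.9% of all genes. Within hippocampus the genotypes did not overlap for *Fibcd1* and *Tdo2*, both lower in En2-/-. Of all genes, 11.3% were lower and 15% higher without overlap there. In cerebellum the genotypes did not overlap for 3 of the 9 genes tested (*Bok*, *Cpne4* and *Prox1*), against 14.7% of all genes. *Spink8* and *Bok* were highest in En2-/- hippocampus and *Tdo2* was lowest there.

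Other genes reported for the same subfields gave a mixed picture. Over all 15822 genes, 2331 were called higher in hippocampus and 2730 lower in WT. In En2-/- these counts were 2257 and 1999. In WT, 4 of 6 further CA1 genes were called higher in hippocampus, and the lowest difference was -0.21 for *Dcn*, which encodes the proteoglycan decorin. Of 5 CA2 genes, 4 were called higher and 1 lower. The CA2 extremes were *Rgs14*, a regulator of G protein signalling, at 7.72 and *Cacng5*, a transmembrane AMPA receptor regulator, at -1.82. Of 6 further CA3 genes tested, 2 were called higher and 3 lower, from -1.83 for *Homer3*, a postsynaptic scaffold protein, to 1.55 for *Nectin3*, an adhesion molecule. Of 7 further dentate gyrus genes, 6 were called higher and 1 lower. There the extremes were *Lct*, the lactase gene, at 5.50 and *Plk5*, a polo-like kinase, at -1.71. In En2-/- the counts higher and lower were 5 and 0 for CA1, 4 and 1 for CA2, 2 and 2 for CA3 and 6 and 1 for the dentate gyrus. All 7 genes listed for hippocampal excitatory neurons were called higher in WT hippocampus, and all 7 genes of cerebellar neurons were called lower.

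For each subfield, 3 genes were named by the likeness of their profile over the 12 arrays to the mean of the subfield's genes, among 15350 genes with a value on every array. For CA1 they were *Sstr4*, a somatostatin receptor (r = 0.993), *Celf5*, an RNA-binding protein (r = 0.993), and *Epop* (r = 0.990). For CA3 they were *Ptgs2*, the inducible prostaglandin synthase (r = 0.996), *Kctd4* (r = 0.996) and *Capn3*, a calpain protease (r = 0.995). The dentate gyrus profile was nearest to *Ccbe1* (r = 0.993), *Lgi1*, a secreted synaptic protein (r = 0.993), and *Epha4*, an ephrin receptor (r = 0.991). The arrays form 2 tissue clusters, so that these coefficients mostly describe the step between the tissues and not the variation within one.

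The comparison of genotypes in hippocampus asked whether loss of *En2* went with a change of these genes. None of the 10 was called (limma over 14978 genes, adjusted p under 0.05), against 1.34% of all genes. At an unadjusted p under 0.05 there were 3, *Fibcd1*, *C1ql2* and *Tdo2*, all lower in En2-/-, against 19.5% of all genes in either direction. The rank product, the method used in the study, also called none at its limit of P under 0.005, unadjusted and from 100 permutations, against 4.13% of all genes. Its count was 3 with normexp and in the authors' log2 table (*Fibcd1*, *Nov* and *C1ql2*), 2 with the strict filter on dim probes, 1 with 75th percentile scaling, and 0 to 2 when 1 array was left out. The En2-/- mean was below the WT mean for 8 of 10, against 44.2% of all genes. Median differences were -0.59 for CA1, -0.18 for CA3 and -0.45 for the dentate gyrus, against 0.05 over all genes. Without the first En2-/- array they were 0.09, -0.34 and -0.63, so that the CA1 median turned direction. A p above the threshold with 3 arrays per group does not show that the genotypes were alike, and the intervals below give the sizes that remain possible.

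**Figure D3:**
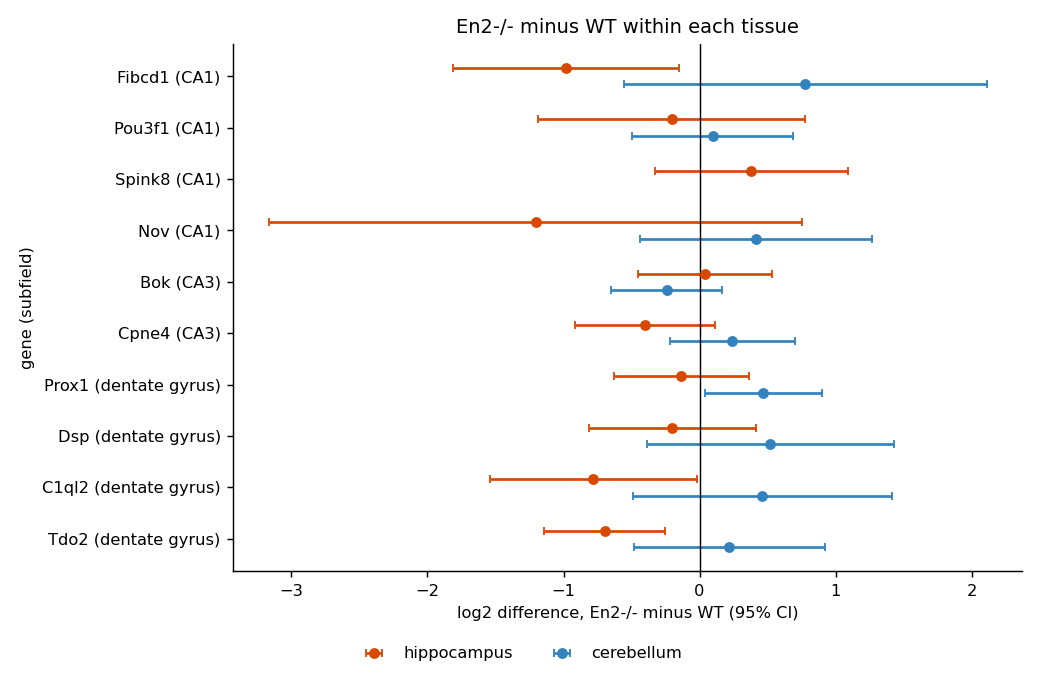
Log2 difference between En2-/- and WT mice (x axis, with 95% confidence interval from limma) for each gene (y axis) within hippocampus and within cerebellum, n = 3 arrays per group; *Spink8* was not tested in cerebellum. In hippocampus the intervals of *Fibcd1*, *C1ql2* and *Tdo2* lie below 0 before adjustment for all genes, and that of *Nov* runs from -3.16 to 0.76.

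In CA1, *Fibcd1* was lower on all 3 En2-/- arrays than on any WT array, with a difference of -0.98 ± 0.36 (1.97-fold, 95% interval -1.81 to -0.15, unadjusted p = 0.026, adjusted p = 0.20). *Fibcd1* was 1 of 2 genes of the list with this pattern, which 11.3% of all genes also showed. Within the 3 slides it differed by -1.72, -0.30 and -0.92. Its rank product P for a decrease was 0.0055, just outside the limit. The other CA1 genes differed by -1.20 ± 0.85 (*Nov*, adjusted p = 0.46), -0.20 ± 0.42 (*Pou3f1*, adjusted p = 0.82) and 0.38 ± 0.31 (*Spink8*, adjusted p = 0.52). Scaled to the 75th percentile of each array, *Pou3f1* was 0.057 higher, where the median of all genes was 0.12.

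The first En2-/- hippocampus array stood apart for the CA1 genes. It gave the lowest of the 6 hippocampus readings for *Nov*, *Pou3f1* and *Fibcd1*, as it did for 19.6% of all genes. *Spink8* read 10.84 there, above the lowest WT array at 10.27. Averaged over the 4 CA1 genes, this array stood at -1.59 relative to the WT mean, whereas the other En2-/- arrays stood at 0.07 and 0.01. The same array stood at 0.14 for the CA3 genes and at -0.07 for the dentate gyrus genes. Without it, *Nov* differed by -0.06 (adjusted p = 0.93), *Pou3f1* by 0.23 (adjusted p = 0.77), *Fibcd1* by -0.59 (adjusted p = 0.32) and *Spink8* by 0.59 (adjusted p = 0.39). The 6 further CA1 genes averaged -0.58 relative to the WT mean on this array. Of these, 3 had their lowest hippocampus reading there and 1 its highest.

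In CA3, *Cpne4* was lower on all 3 slides, at -0.23, -0.55 and -0.42, while the groups overlapped (-0.40 ± 0.22, 95% interval -0.92 to 0.12, adjusted p = 0.35). Its probe A_52_P392314 gave -0.49 ± 0.34 (limma adjusted p = 0.43 over 23778 probes), again with overlap. Probe A_51_P260288 ran the other way, with every En2-/- array above every WT array (0.71 ± 0.29, unadjusted p = 0.041, adjusted p = 0.22 over 23778 probes). That probe was well above background on 2 of 3 WT and 3 of 3 En2-/- arrays. It thus entered the test only through En2-/-, where it was higher. *Bok* differed by 0.04 ± 0.21 (95% interval -0.45 to 0.53, adjusted p = 0.94) and by -0.18 without the first En2-/- array.

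In the dentate gyrus, all 4 genes had a lower mean in En2-/- hippocampus. *Tdo2* was lower on every En2-/- array, with a difference of -0.70 ± 0.19 (1.62-fold, 95% interval -1.15 to -0.25, unadjusted p = 0.0071, adjusted p = 0.13). Its second probe read 7.61 to 8.45 in WT and 7.22 to 7.55 in En2-/-, which again did not overlap (-0.68 ± 0.24). *C1ql2* differed by -0.78 ± 0.33 (1.72-fold, 95% interval -1.54 to -0.02, unadjusted p = 0.046, adjusted p = 0.25). It was lower on all 3 slides, at -0.30, -0.55 and -1.49, although the first En2-/- array lay within the WT range. Without that array the differences were -1.13 for *C1ql2* (adjusted p = 0.11), which the rank product then called, and -0.84 for *Tdo2* (adjusted p = 0.12).

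*Dsp* differed by -0.20 ± 0.27 (95% interval -0.82 to 0.42, adjusted p = 0.71), and by -0.42 without the first En2-/- array. Its probes A_52_P242544 and A_52_P549815 gave -0.30 ± 0.40 and -1.04 ± 0.54, both with overlap (limma adjusted p = 0.69 and 0.31 over 23778 probes). A_52_P549815 was well above background on 3 of 3 WT and 2 of 3 En2-/- arrays, and so entered the test only through WT. *Prox1* differed by -0.13 ± 0.22 with its brightest probe (95% interval -0.63 to 0.37, adjusted p = 0.76), and the groups overlapped. Its other probes did not overlap. A_51_P369056, at chr1:191947038-191947097, read 8.45, 8.03 and 7.81 in WT and 7.42, 7.37 and 7.28 in En2-/- (-0.74 ± 0.20, unadjusted p = 0.0069, adjusted p = 0.11 over 23778 probes). A_51_P369058, printed above, read 7.62, 7.13 and 7.28 in WT and 7.08, 6.53 and 6.50 in En2-/- (-0.64 ± 0.23, unadjusted p = 0.023, adjusted p = 0.17). The 3 probes of *Prox1* thus agreed in direction and differed in size, and none passed the adjusted threshold.

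**Figure D4:**
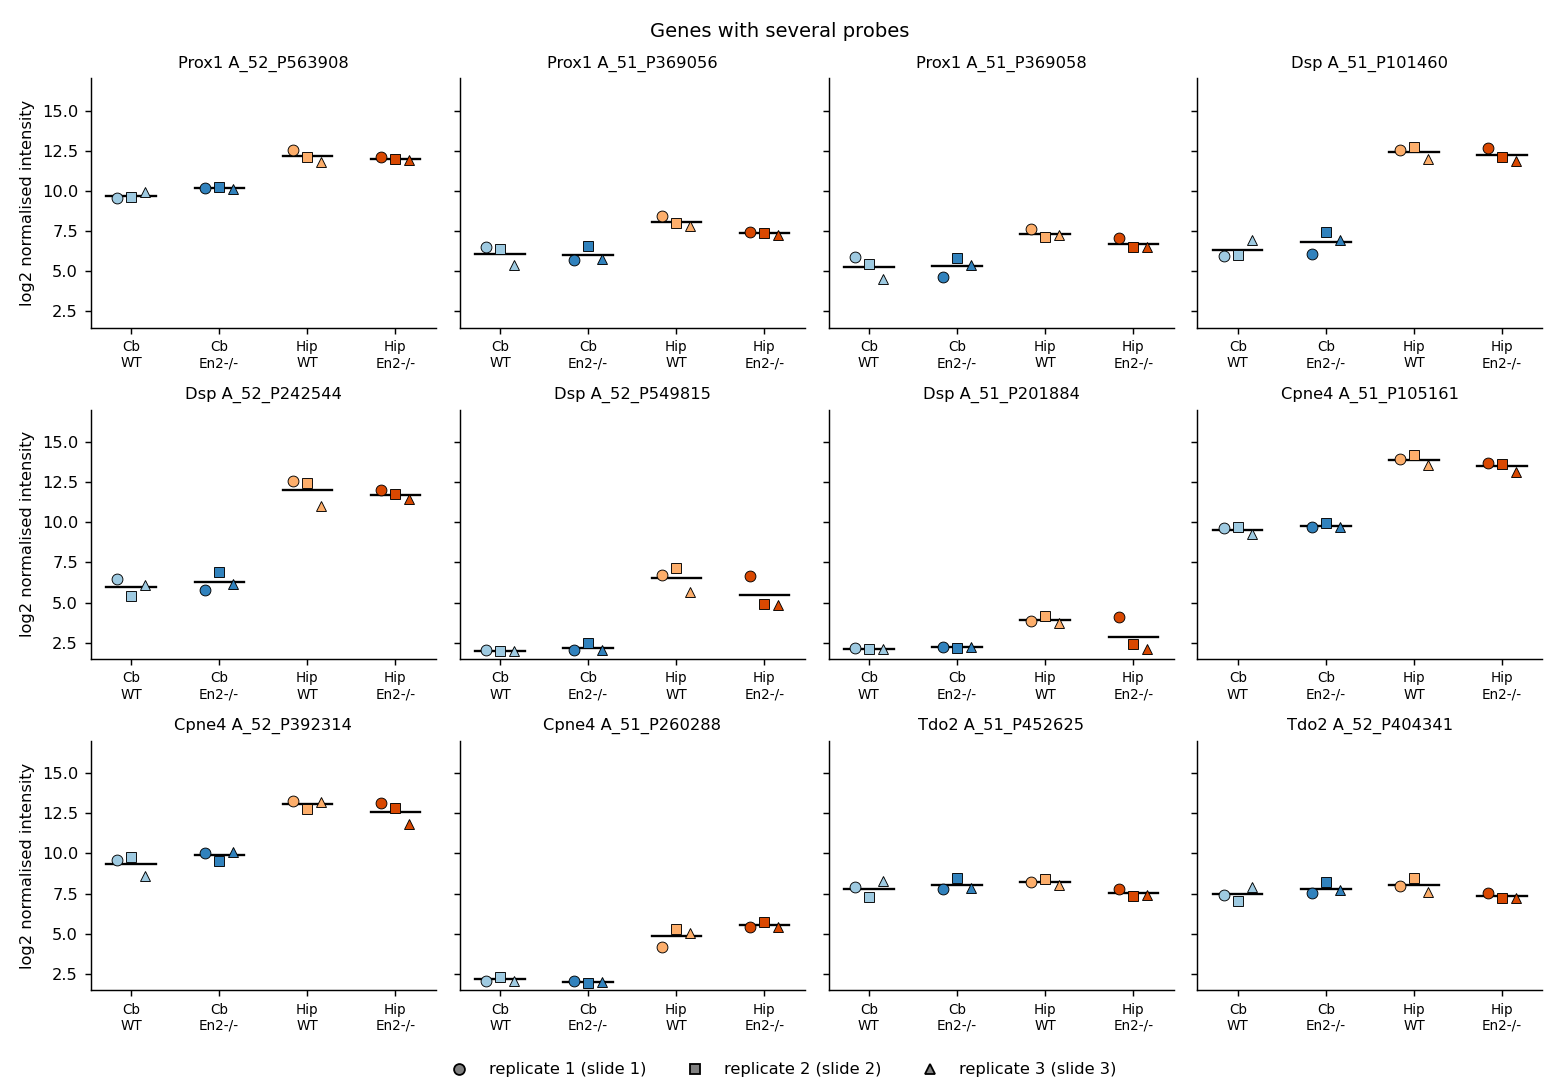
Levels (log2 normalised intensity, y axis) of every probe of *Prox1*, *Dsp*, *Cpne4* and *Tdo2* in the 12 arrays by tissue and genotype (x axis; symbols and bars as in the plot of the 10 genes). Levels are not comparable between probes. Within hippocampus the En2-/- arrays lie below all WT arrays for 2 probes of *Prox1* and both of *Tdo2*. They lie above them for *Cpne4* A_51_P260288, which was well above background on 2 of 3 WT hippocampus arrays.

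Markers of neighbouring tissue were read on the same arrays. Their lists were drawn up with earlier results of these data known, so their directions and calls are descriptive and no independent test. The 6 thalamus genes were well above background on all hippocampus arrays and were all higher in En2-/- hippocampus, with a median difference of 1.11. *Ramp3*, a receptor activity-modifying protein, was called (1.58 ± 0.28, adjusted p = 0.045), and the rank product called it with *Tcf7l2*, a transcription factor of Wnt signalling (1.39), and *Tnnt1*, a troponin (1.45). Averaged over the list, the 3 En2-/- arrays lay 1.32, 0.63 and 1.41 above the WT mean, while the WT arrays ranged from -0.34 to 0.27.

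The 6 choroid plexus genes spread widely, from -0.59 to 0.61 on the WT arrays, and at 1.26, -2.74 and -0.52 on the En2-/- arrays. All 6 were at their highest on the first En2-/- array, the one with the low CA1 genes. None was called by limma in hippocampus, and *Ttr*, the transthyretin gene, was called lower by the rank product (-1.26). The 5 cortex genes averaged -0.73 relative to the WT mean on that same array and 0.40 and 0.17 on the others. The 7 genes of hippocampal excitatory neurons all had a lower mean in En2-/-, with a median of -0.40 and none called by limma; *Zbtb20*, a zinc finger transcription factor of hippocampal pyramidal and granule neurons, was called by the rank product (-0.94). Of the 4 cerebellar neuron genes tested in hippocampus, *Cbln1*, a synaptic organiser secreted by cerebellar granule cells, was called higher by the rank product (1.10). In the CA2, further CA3, further dentate gyrus and mossy cell lists no gene was called by either method. The part of these markers in the levels of the 10 genes was not tested.

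**Figure D5:**
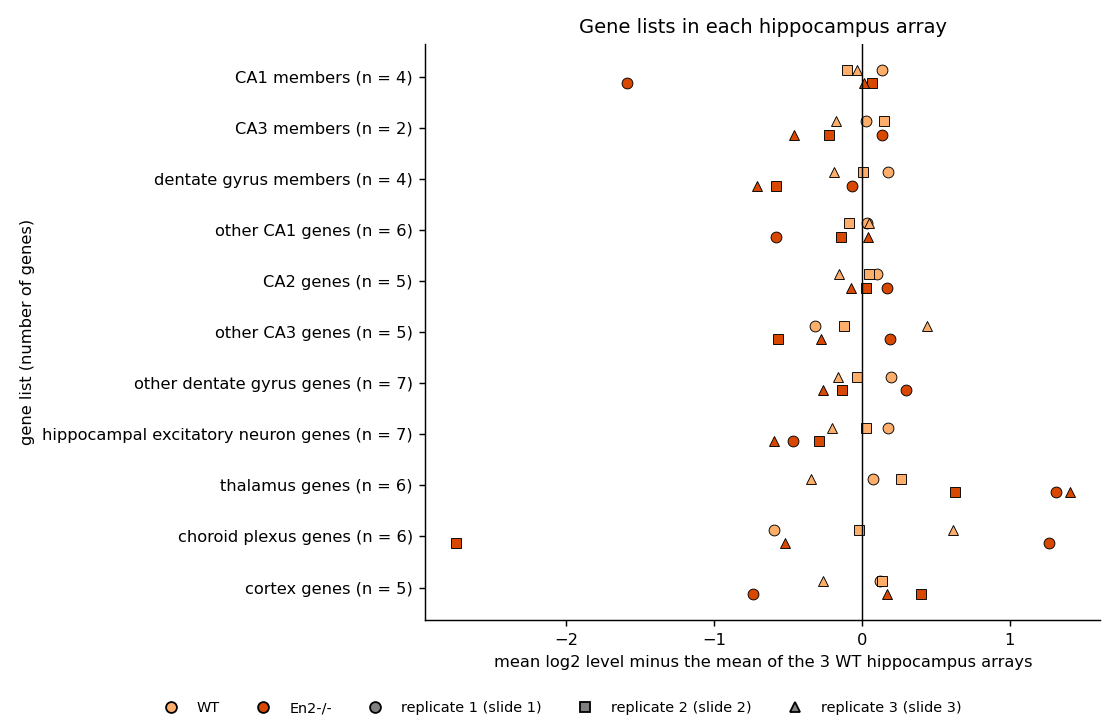
Mean log2 level of each gene list on each hippocampus array minus the mean of the 3 WT arrays (x axis); the y axis gives the list with its number of genes, colours the genotype and symbols the replicate, which is also the slide. On the first En2-/- array the CA1 genes lie at -1.59, the thalamus genes at 1.32 and the choroid plexus genes at 1.26.

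In cerebellum, 9 of the 10 genes were bright enough to test and *Spink8* was not. None was called by limma over 15606 genes, against 0.660% of all genes, and 1 of 9 (*Prox1*) had an unadjusted p under 0.05, against 9.30% of all genes. The rank product called 1 of 9 at its limit of P under 0.01, against 5.01% of all genes. This was *Fibcd1*, higher in En2-/- by 0.78 ± 0.58 (permutation P of the rank product = 0.0089, limma adjusted p = 0.78), and within the slides it differed by -0.15, 0.10 and 2.38. Its probe was well above background on 2 of 3 WT and 3 of 3 En2-/- cerebellum arrays. *Fibcd1* thus entered the test only through En2-/-, the group where it was higher. The call was lost with the slide as a block, with normexp, in the authors' log2 table, with 75th percentile scaling, without a filter or with the strict filter on dim probes, and with all probes as features. It was also lost without WT replicate 1, WT replicate 3, En2-/- replicate 2 or En2-/- replicate 3. The En2-/- mean was higher for 8 of 9 genes, *Fibcd1* among them, against 46.2% of all genes. *Prox1* had the lowest unadjusted p, with every En2-/- array above every WT array (0.47 ± 0.19, unadjusted p = 0.037, adjusted p = 0.50). *Bok* was lower on every En2-/- array, with a difference of -0.24 ± 0.18 (adjusted p = 0.77). The remaining differences were 0.52 for *Dsp*, 0.46 for *C1ql2*, 0.41 for *Nov*, 0.24 for *Cpne4*, 0.22 for *Tdo2* and 0.10 for *Pou3f1*, with adjusted p from 0.78 to 0.96.

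The genotype effect was compared between tissues by testing hippocampus against cerebellum in 1 model. None of the 10 genes was called, against 0.145% of all genes. *Fibcd1* and *Tdo2* had an unadjusted p under 0.05, as did 1870 of all 15822 genes. The effect in hippocampus minus that in cerebellum was -1.76 ± 0.77 for *Fibcd1* (unadjusted p = 0.043, adjusted p = 0.41) and -0.92 ± 0.38 for *Tdo2* (unadjusted p = 0.033, adjusted p = 0.39). For 8 of the 10 genes it was below 0, against 42.7% of all genes, whose median was 0.09. The exceptions were *Spink8* (0.20) and *Bok* (0.28). For *Nov* it was -1.62 ± 1.05 (adjusted p = 0.54) and -0.47 without the first En2-/- hippocampus array. Without that array *Fibcd1* stood at -1.37 and *Tdo2* at -1.06. Leaving out 1 array at a time gave -2.31 to -1.23 for *Fibcd1*.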

How the data were processed

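Expression was measured on 12 Agilent 4x44K one-colour arrays (Cy3), 3 for each tissue and genotype. The authors scanned them with Feature Extraction 10.7.3.1, and the deposited files hold fluorescence intensity per spot, background-subtracted by that software per the file headers. The processed signals were set to log2, quantile-normalised over the 12 arrays and averaged over spots of a probe, without spots flagged as outliers, of which there were 110 to 331 per array and none in the 10 genes. Names came from the annotation in the cerebellum files, updated through RefSeq (GRCm38.p6, names only), and 6276 of 41174 probes kept no gene name. The probe with the highest mean stood for a gene. A gene entered a test when each array of 1 or more of the groups compared read it well above background, and was tested with limma 3.58.1 (R 4.3.3) and Benjamini-Hochberg adjustment. Tissues and the interaction were fitted over 12 arrays, genotypes within a tissue over its 6 arrays, and a rank product over all pairs of En2-/- and WT arrays used 100 permutations. The code was tested on simulated data.

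The authors also deposited a log2 table of 27534 probes, made with Agi4x44PreProcess filtering and quantile normalisation per the study's methods. It holds values of 16 of the 18 probes, correlates with the scanner log2 signal at r of at least 0.984 per array, and has medians of 9.50 to 9.52 in hippocampus and 9.57 to 9.58 in cerebellum. It is neither centred by gene nor turned in direction. It appears to be scaled separately for each tissue, which its source does not state, so tissues set against each other in it are on separate scales, and it served as an alternative. No per-sample column was left unused (0).

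The genes were chosen by name, and they and the other lists with earlier results of these data known. Named were all 10 genes, the list genes called between genotypes, the extremes of the CA1, CA2, CA3 and dentate gyrus lists in WT, and the 3 genes most like each subfield. The upper extreme of the CA1 list is not reported here. The replicate number marks the slide. Deviations from the group means of same-numbered arrays correlated at -0.19 to 0.42 over 18 pairs, so the number was used as a block only as an alternative. The number of arrays limits the precision.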

Additional observations from a re-analysis of the deposited data

Results flagged for a closer look

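*Cpne4* drew attention because the genotypes differed in opposite directions in the 2 tissues on every slide. It was lower in En2-/- hippocampus (-0.23, -0.55 and -0.42) and higher in En2-/- cerebellum (0.06, 0.25 and 0.41) on slides 1, 2 and 3. The difference between the tissues was -0.64 ± 0.30 (log2), which did not pass the test over all genes (limma interaction, unadjusted p = 0.052, adjusted p = 0.42). These are values of its brightest probe. A_52_P392314 gave -1.04 ± 0.52 and A_51_P260288, not well above background in cerebellum, gave 0.88 ± 0.36, the opposite direction (unadjusted p = 0.070 and 0.030, adjusted p = 0.47 and 0.40 over all probes, limma). A_51_P260288 was well above background on every array only in En2-/- hippocampus, the group through which it entered the test.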

How the results depend on the processing

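With a replicate block, which is also a slide block, the tissue counts remained 9 and 8 of the 10 genes and the limma counts between genotypes remained 0. The limma counts were 0 under every alternative run. The number of genes called higher in hippocampus was 7 to 9 in WT and 6 to 9 in En2-/- over all alternatives. The lowest values came from the strict filter, which left 8 genes to test, and *Spink8* has no cerebellum value in the authors' table. Leaving out 1 array at a time gave 9 in WT and 8 to 9 in En2-/-. The rank product in hippocampus called 0 genes as reported but 1 after scaling to the 75th percentile (*Fibcd1*), 3 with normexp background correction, 3 in the authors' table (*Fibcd1*, *Nov* and *C1ql2* in both) and 2 with the strict filter (*Fibcd1* and *Nov*). Leaving out 1 array gave 0 to 2, with *Fibcd1* called without WT replicate 2, *C1ql2* without En2-/- replicate 1, *Nov* without En2-/- replicate 2, and *Fibcd1* and *Nov* without En2-/- replicate 3. In cerebellum the rank product called 1 gene as reported and 0 after 75th percentile scaling, with normexp, in the authors' table, without a filter, with the strict filter, with all probes as features and under the replicate block, and 0 to 1 when 1 array was left out. The causes were not tested.

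Of 87 differences between tissues recomputed in WT, 87 kept direction and call, and 84 of 87 did so in En2-/-. There *Nov* was called with normexp (1.76, adjusted p = 0.049) and *Tdo2* in the authors' table (-0.71, adjusted p = 0.021) and with tissues scaled separately. *Pou3f1* turned direction under 75th percentile scaling, in hippocampus (0.057) and in the difference between tissues (0.037), where that scaling moved the median of all genes to 0.12 and 0.21. Leaving out 1 array turned the direction in hippocampus of *Pou3f1* (-0.57 to 0.23), *Bok* (-0.18 to 0.15) and *Prox1* (-0.31 to 0.060), in cerebellum of *Pou3f1* (-0.071 to 0.31), *C1ql2* (-0.036 to 0.73) and *Tdo2* (-0.048 to 0.45), and in the difference between tissues of *Pou3f1* (-0.66 to 0.14) and *Spink8* (-0.10 to 0.41). The counts over all genes moved more than those of the 10 genes. In hippocampus 201 genes were called by limma, against 68 without a filter, 69 with the block and 507 of all probes, and by the rank product 618 against 1013 of all probes. In cerebellum 103 were called, against 43 without a filter, 60 with normexp, 63 with the strict filter, 66 in the authors' table and 161 with 12 arrays in 1 fit. For the difference between tissues 23 were called, against 12 to 15 under the filters, normexp and the authors' table. Leaving out 1 array gave 38 (without WT replicate 1) to 144 in hippocampus, 46 (without WT replicate 2) to 90 in cerebellum, and 5 (without cerebellum WT replicate 1) to 36 (without hippocampus En2-/- replicate 1) for the difference between tissues. In the authors' table, 21.4% of the genes called in WT and 23.0% in En2-/- were higher in hippocampus.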

Other observations

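In cerebellum, none of the other lists held a gene called between genotypes by limma. The rank product called 5 of their genes, where it called 5.01% of all genes tested. These were 2 of 6 choroid plexus genes, 1 of 7 excitatory neuron genes, 1 of 4 cortex genes tested and 1 of 7 cerebellar neuron genes. *Ttr* (0.89) and *Otx2* (0.90), a homeobox gene of the choroid plexus, were higher in En2-/- cerebellum, and all 6 choroid plexus genes had a higher mean there, with a median of 0.40. *Lhx2* (0.82), a LIM homeobox gene of the excitatory neuron list, and *Rorb* (0.98), a nuclear receptor gene of cortical layer neurons, were also called higher. *Fat2* (-0.82), an atypical cadherin of cerebellar granule cells, was called lower, and 6 of the 7 cerebellar neuron genes had a lower mean.

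Between tissues in WT, 2 of 5 mossy cell genes were called higher in hippocampus and 2 lower. Of the thalamus genes 4 of 6 were called lower and none higher, of the choroid plexus genes 1 of 6 was called higher, and of the cortex genes 3 of 5. Of all 15822 genes, 14.7% were called higher, and 2730 genes were called lower.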
